A study of Homo sapiens with 2 samples.

Results

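The 10 genes examined here code for growth factors of the epidermal growth factor (EGF) family: the 4 neuregulins (NRG1, NRG2, NRG3 and NRG4) and the 6 ligands EGF, TGFA, HBEGF, AREG, EREG and BTC. They were taken as a named list, 10 of 20163 protein-coding genes, and every CpG dinucleotide within 2000 bp of any of their annotated transcription start sites (TSS) or inside the gene was included. This gave 21667 of the 28217448 CpG dinucleotides in the deposited tables, of which 18455 had over 5 reads in each of the lines. The methylomes came from whole-genome bisulfite sequencing, in which unmethylated cytosines are converted and read as thymine, so that the share of reads that keep a cytosine is the methylation level. One library was made from OCI-AML3, an acute myeloid leukemia (AML) cell line labelled DNMT3A mutant (a heterozygous missense mutation, per the study), and one from AML5 (OCI-AML5 in the labels), an AML cell line labelled DNMT3A wild type. Both are established lines, and no treatment is given for either culture. DNMT3A is a de novo DNA methyltransferase, and the comparison addressed which loci differ in methylation between a mutant and a wild-type line. With 1 line for each genotype, the mutation and every other difference between the lines cannot be told apart, and counts of CpG calls cannot check the mutation itself.

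EGF family ligands are made as membrane-spanning precursors and are released by metalloproteases such as ADAM17. The soluble EGF-like domain binds receptor tyrosine kinases of the ERBB family: EGF, TGF-alpha (TGFA) and amphiregulin (AREG) bind EGFR, HB-EGF (HBEGF), epiregulin (EREG) and betacellulin (BTC) bind EGFR and ERBB4, and the neuregulins bind ERBB3, ERBB4 or both. Several of these genes, NRG1 above all, use alternative promoters that give proteins with different N-terminal parts, and monocytes and macrophages are among the cells known to make HB-EGF, amphiregulin and epiregulin.

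The tables held 902802339 calls for OCI-AML3 and 894828667 for AML5, with medians of 27 and 30 calls per nuclear CpG, where 3 methylated calls correspond to 11.1% and 10.0%. The mean level of sites with more than 5 reads was 67.6% in OCI-AML3 against 75.2% in AML5. Of 6 myeloid marker genes, SPI1 had the lowest promoter level, 11.5% in both lines. MPO was high, with 93.2% in OCI-AML3 against 90.3% in AML5, and so was LYZ, with 75.5% against 71.2%. CD33 had 36.5% against 32.3% and CSF3R 40.6% against 41.1%. Thus CD33, CSF3R, LYZ and MPO differed by less than 5 percentage points, whereas ELANE had 20.1% in OCI-AML3 against 78.4% in AML5. The promoters of the T-cell markers CD3E, CD3D and CD2 had between 74.9% and 91.5% in either line, those of the B-cell markers CD79A and PAX5 between 22.5% and 69.6%, and those of the epithelial markers EPCAM, CDH1 and KRT18 between 42.8% and 71.3%. Levels below are means over sites with over 5 reads in each line (covered CpGs), and a region was counted as lower or higher when the means differed by over 20 percentage points over at least 10 CpGs. No region was given a P-value, since there were no replicates. The Wilson 95% intervals are for pooled calls, and they cover counting error only, because calls on 1 read are not independent.

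Around the most upstream TSS, 3 of the 10 ligand genes passed this difference and the others did not (see the plot of promoter and gene body levels). EGF had less methylation in OCI-AML3, and NRG1 and NRG3 had more. Among 19667 protein-coding promoters, 8.61% were lower in OCI-AML3 and 1.79% were higher, beside 1 and 2 of these 10. The median difference of the 10 promoters was −3.31 percentage points, against −4.68 for all promoters, and 6 of the 10 were below 0, compared with 84.7% of all promoters. In the gene bodies, more than 2000 bp from every TSS, EGF and BTC were lower in OCI-AML3 and none of the genes was higher, where 7.67% and 0.509% of 17276 bodies were. AREG had 5 covered CpGs in its body and was not counted. The median body difference of the other 9 was −12.5 percentage points, against −4.85 for all bodies. NRG3 was the 1 body above 0, where 92.4% of all bodies were below 0.

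**Figure D1:**
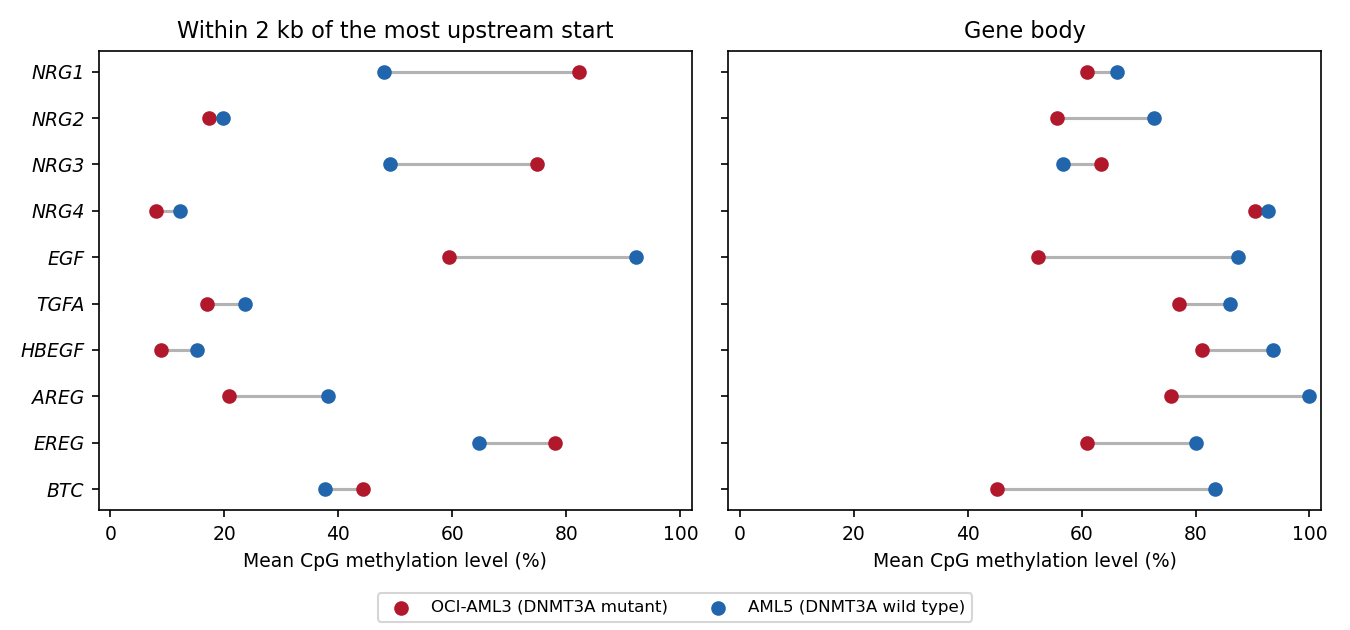
Mean CpG methylation (x axis, %) of each of the 10 ligand genes (y axis) within 2000 bp of the most upstream start (left) and in the gene body (right), in OCI-AML3 and AML5; each point is 1 library and the gray line joins the lines of 1 gene. NRG1 and NRG3 have the OCI-AML3 point to the right in the left panel (82.2% against 48.1%, and 74.8% against 49.0%), and EGF and BTC have it far to the left in the right panel (52.4% against 87.4%, and 45.2% against 83.4%).

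EGF, the founding ligand of EGFR, was less methylated in OCI-AML3 along its whole length. The promoter window on chromosome 4 (TSS at 110834039, GRCh37, plus strand) had 59.4% in OCI-AML3 against 92.3% in AML5 over 31 CpGs. Pooled over calls the shares were 64.2% (60.3–68.0%) of 604 calls and 93.9% (92.2–95.2%) of 966. This is a CpG-poor start, with 3 CpGs in the 300 bp upstream of the TSS, where the median protein-coding gene has 21. All 12 annotated EGF start windows were lower, with differences from −52.0 to −23.8 percentage points, where 7.53% of start windows of protein-coding genes were. All of its 10 bins of 10 kb were lower too, where 17% of the bins of the genome were. The levels of these 10 bins were 36.9% to 61.4% in OCI-AML3 but 72.6% to 92.9% in AML5. The longest runs of called CpGs held 8 each, one in intron 1 (110848962 to 110849986) with 12.2% in OCI-AML3 against 89.9% in AML5, and one in intron 20 (110918217 to 110918679) with 26.7% and 75.9%. Of the other gene bodies on chromosome 4, 17.2% were lower in OCI-AML3 by over 20 percentage points, the highest share among the chromosomes that carry these ligands.

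EREG and BTC, which lie within 1 stretch of chromosome 4 together with AREG, showed opposite differences at the TSS and downstream of it. Within 250 bp of the EREG start (75230862, plus strand), epiregulin DNA had 69.7% methylation in OCI-AML3 against 31.5% in AML5 over 31 CpGs, while the wider promoter window had 78.1% and 64.6%. The difference lay in a dip present in AML5, where the 18 CpGs in the first 250 bp of the gene had 17.5%, while the bins of 250 bp that begin at −500 bp and at 500 bp had 91.2% and 94.4%. A run of 16 CpGs in exon 1 (75230927 to 75231062) had 76.8% in OCI-AML3 against 16.3% in AML5. A second run of 6 followed in intron 1 and had 84.4% and 24.7%. Farther along, the body of EREG had 60.9% in OCI-AML3 against 80.1% in AML5, a difference of −19.3 percentage points that did not pass 20.

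At BTC (TSS at 75719733, minus strand) the promoter window of 2000 bp on each side had 44.4% in OCI-AML3 against 37.7% in AML5, a small difference that fell to 2.32 percentage points for pooled calls and to 0.857 over the upstream side alone. In the BTC start windows 18 of 97 covered CpGs were lower and 17 were higher. Around all protein-coding starts, 12.5% of CpGs were lower and 4.12% higher. Within 250 bp of the BTC TSS the levels were 44.4% and 19.1% over 25 CpGs. The longest higher run spanned the TSS itself (75719709 to 75719740), where 6 CpGs had 92.1% and 12.1%. The body then turned the other way, with 45.2% in OCI-AML3 against 83.4% in AML5 over 258 CpGs. Of these, 136 were lower and 0 higher in the exact test, where 14.7% and 3.86% of CpGs of the genome were. The start of a shorter coding transcript inside the gene (75695366) had 27.3% in OCI-AML3 against 77.2% in AML5. The intron 1 stretch of EREG (chr4:75231116-75231280, plus strand, GRCh37) is shown because OCI-AML3 carried the higher level there. The 300 bp before the BTC start (chr4:75719734-75720033, minus strand, GRCh37) are shown because the higher run at the TSS reaches into their end. CpGs are in capitals.
EREG intron 1: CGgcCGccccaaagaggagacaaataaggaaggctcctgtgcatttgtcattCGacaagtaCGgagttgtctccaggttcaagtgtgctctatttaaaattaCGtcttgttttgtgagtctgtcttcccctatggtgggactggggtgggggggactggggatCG
BTC upstream: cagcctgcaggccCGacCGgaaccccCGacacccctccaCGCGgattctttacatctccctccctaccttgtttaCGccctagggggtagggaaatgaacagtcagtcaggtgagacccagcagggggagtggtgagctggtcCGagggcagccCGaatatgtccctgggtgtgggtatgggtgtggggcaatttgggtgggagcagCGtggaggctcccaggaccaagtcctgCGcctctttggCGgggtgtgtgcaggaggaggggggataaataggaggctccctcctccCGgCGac
The EREG stretch is a run, so its 6 CpGs were selected for being higher in OCI-AML3 in Fisher's exact test across the genome. The fourth, the CG at position 62, had 47 methylated of 53 calls in OCI-AML3 and 1 of 28 in AML5 (exact test, Benjamini–Hochberg adjusted P=9.8e-13). In the BTC stretch 2 of 12 covered CpGs were called, and these were the 2 next to the TSS, at positions 294 (92.3% against 8.33%) and 297 (100% against 30%). The other covered CpGs went either way, such as 84.6% against 50% at position 18 and 0% against 22.7% at position 42.

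AREG was poorly covered. Only 38 of the 149 CpGs in and around the amphiregulin gene had more than 5 reads in both lines, and 76 had no call in OCI-AML3 and 69 none in AML5. This build holds a near-identical second copy of the gene, named AREGB, in which 8 of 147 CpGs were covered in both lines. The covered CpGs within 250 bp of the AREG starts, 17 of 62, had 1.43% in OCI-AML3 against 16.7% in AML5. The whole promoter window had 20.9% and 38.2% over 24 of 100 CpGs.

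HBEGF and TGFA had CpG-rich starts that were nearly free of methylation in both lines. HBEGF, on chromosome 5 (TSS at 139726188, minus strand), had 0.17% in each line within 250 bp of its start over 63 CpGs. The lines differed at the margins of this unmethylated stretch, where a run of 4 CpGs at −463 bp (139726612 to 139726690) had 16.1% and 72.6%. The HBEGF upstream sequence (chr5:139726189-139726488, minus strand, GRCh37) is given as the CpG-dense unmethylated state against which the other starts can be read.
HBEGF upstream: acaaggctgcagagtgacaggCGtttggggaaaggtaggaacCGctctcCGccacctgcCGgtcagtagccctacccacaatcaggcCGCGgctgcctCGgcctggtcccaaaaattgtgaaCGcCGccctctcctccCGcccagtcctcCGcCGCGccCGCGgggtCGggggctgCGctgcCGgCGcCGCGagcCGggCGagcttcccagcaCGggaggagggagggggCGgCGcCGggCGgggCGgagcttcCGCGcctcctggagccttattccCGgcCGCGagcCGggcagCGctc
It holds 36 CpGs, all covered, and none was called in either direction. Of 921 calls in OCI-AML3 and 651 in AML5, the means over CpGs were 0.174% and 0.521%. TGFA, on chromosome 2, had 0.75% in OCI-AML3 against 5.99% in AML5 within 250 bp of its upstream starts. Its promoter window as a whole had 17.0% and 23.6%, a difference of −6.60 percentage points.

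The longest run of lower CpGs in TGFA was in intron 2, where 7 of them (70699420 to 70699871) had 1.0% in OCI-AML3 against 91.6% in AML5. The part of it at chr2:70699420-70699719 (minus strand, GRCh37) is shown because it was free of methylated calls in 1 line and mostly methylated in the other.
TGFA intron 2: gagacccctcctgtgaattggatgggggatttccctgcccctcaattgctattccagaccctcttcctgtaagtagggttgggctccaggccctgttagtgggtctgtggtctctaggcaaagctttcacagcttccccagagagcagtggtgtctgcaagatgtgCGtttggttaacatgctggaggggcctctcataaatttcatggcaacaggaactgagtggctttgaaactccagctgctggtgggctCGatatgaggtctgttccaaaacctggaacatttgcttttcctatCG
It contains 3 CpGs, which had 0 of 90 methylated calls in OCI-AML3, which allows a share of up to 3.33%, and 135 of 155 in AML5. The body of TGFA had 77.2% in OCI-AML3 against 86.1% in AML5.

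Among the neuregulins, NRG4, which acts through ERBB4, differed between its alternative promoters. Its most upstream start group on chromosome 15 (76352069 to 76352136, minus strand) lies close to the starts of TMEM266 (76352299 and 76352326), which runs the other way, and was unmethylated in both lines, with 0.69% in OCI-AML3 against 0.28% in AML5 within 250 bp over 88 CpGs. The canonical start group (76303628 to 76304774, 7 starts) had 6.21% in OCI-AML3 against 75.2% in AML5 within 250 bp over 11 CpGs. Over the full windows of this group the levels were 46.3% and 86.5%, and pooled over calls 29.8% (26.3–33.6%) of 594 and 83.0% (80.3–85.3%) of 874. The 300 bp just upstream of this group (chr15:76304775-76305074, minus strand, GRCh37) are printed to show which of their CpGs were low in OCI-AML3.
NRG4 upstream: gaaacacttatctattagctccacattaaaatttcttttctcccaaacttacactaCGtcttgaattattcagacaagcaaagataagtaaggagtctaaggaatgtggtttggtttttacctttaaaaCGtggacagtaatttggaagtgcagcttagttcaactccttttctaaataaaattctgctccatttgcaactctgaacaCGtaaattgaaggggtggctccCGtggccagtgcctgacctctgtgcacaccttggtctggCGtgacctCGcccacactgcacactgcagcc
These hold 6 CpGs, at positions 57, 130, 209, 231, 270 and 278. At position 57, 3 of 4 calls were methylated in OCI-AML3 and 6 of 7 in AML5. At position 130, 3 of 6 (50%) and 14 of 18 (77.8%) were. With so few calls in OCI-AML3, the upstream edge of the low stretch cannot be placed. From position 209 on, OCI-AML3 had at most 1 methylated call at a CpG, with 4.0%, 0%, 2.86% and 2.94%, whereas AML5 had 87.3%, 23.3%, 92.9% and 86.2%. The last 4 were called lower, and the smallest adjusted P was 4.04e-17 (exact test, 1 of 35 against 52 of 56 calls at position 270).

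The low stretch of NRG4 went on into the gene, where a run of 9 CpGs over exon 1 and the bases before it (76304519 to 76304866) had 2.03% in OCI-AML3 against 75.9% in AML5. Beyond the start the gene was heavily methylated in both lines, with a body level of 90.4% in OCI-AML3 against 92.6% in AML5. Of its 13 bins of 10 kb, 0 differed by over 20 percentage points, where 17% of the bins of the genome were lower and 2.85% higher. A second low run, of 8 CpGs in intron 5 (76238799 to 76238980, 23.3% and 83.4%), lay at −704 bp from the start of a transcript without a coding sequence. The NRG4 promoter window thus differed by −4.16 percentage points at the most upstream start, and that of the canonical group by −40.2.

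NRG2, a ligand of ERBB3 and ERBB4 on chromosome 5, had a main start with little methylation in both lines. Within 250 bp of its upstream starts (139422654 to 139422884, minus strand) the level was 1.77% in OCI-AML3 against 4.04% in AML5, and the window of 2000 bp had 17.3% and 19.7%. The body had 55.7% and 72.7%. All of its 20 bins of 10 kb were below 0, 8 of them by over 20 percentage points. Of all bins of the genome, 17% were lower by that much. The share of bins below 0 was not computed, and 92.4% of all whole gene bodies were below 0. There were 52 lower runs and 3 higher ones, where 84.7% of the runs of the genome were lower. One of the 2 longest lower runs lay over exon 4 (chr5:139251331-139251457, minus strand, GRCh37), with 96 of its 127 bp in the coding sequence of the canonical transcript.
NRG2 exon 4: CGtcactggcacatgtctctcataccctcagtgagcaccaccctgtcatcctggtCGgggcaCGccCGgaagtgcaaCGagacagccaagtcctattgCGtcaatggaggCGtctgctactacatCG
The 8 CpGs of this stretch, selected as a run of CpGs called lower, had 16.1% in OCI-AML3 against 87.3% in AML5. The start of a transcript without a coding sequence lies inside it, at 139251388.

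NRG3, a ligand of ERBB4 known mainly from the nervous system, was the one gene of the set whose means in OCI-AML3 were above those in AML5 at the start and over the body. Its promoter window on chromosome 10 (TSS at 83634950, plus strand) had 74.8% in OCI-AML3 against 49.0% in AML5 over 261 CpGs. The pooled shares were 77.5% (76.7–78.3%) of 9977 calls and 48.0% (46.9–49.1%) of 7873, and the SD between CpGs was 26.3 and 27.9 percentage points. This start is CpG-dense, with 40 CpGs in the 300 bp before it. All 7 NRG3 start windows were above 0, by 5.4 to 25.9 percentage points. Of these, 2 passed 20, where 1.22% of start windows of protein-coding genes were higher by that much. Of 336 covered CpGs in the start windows, 135 were higher and 9 lower, where 4.12% and 12.5% of CpGs around all protein-coding starts were. The longest higher run lay at −386 bp (chr10:83634522-83634605, plus strand, GRCh37). The longest lower run held 8 CpGs over exon 2 (84118501 to 84118624), with 51.4% and 85.2%. The upstream run is shown with a lower run of intron 4 (chr10:84626331-84626485, plus strand, GRCh37), since the gene carried both kinds.
NRG3 upstream: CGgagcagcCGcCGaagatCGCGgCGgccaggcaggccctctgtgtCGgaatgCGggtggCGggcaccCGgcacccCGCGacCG
NRG3 intron 4: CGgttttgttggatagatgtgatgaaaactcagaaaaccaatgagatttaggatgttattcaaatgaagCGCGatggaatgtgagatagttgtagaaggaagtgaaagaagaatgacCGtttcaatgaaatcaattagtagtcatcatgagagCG
The upstream stretch had 91.4% in OCI-AML3 against 37% in AML5. A run holds only CpGs called the same way, so its 13 CpGs were selected for being higher. In OCI-AML3 they ranged from 84.1% to 95.6% and in AML5 from 13.9% to 57.6%. The intron 4 stretch had 0 of 245 methylated calls in OCI-AML3, which allows a share of up to 1.22%, against 222 of 265 in AML5. Its 5 CpGs, selected as a run of lower calls, went from 0 of 25 against 17 of 28 calls at the first to 0 of 60 against 63 of 72 at the last.

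The body of NRG3 had 63.4% in OCI-AML3 against 56.7% in AML5 over 5462 CpGs. Its difference of 6.75 percentage points was above that of 97.7% of all gene bodies. Among the 322 other genes longer than 500 kb, 39 bodies were above 0 and their median was −10.9 percentage points. The sign changed along the gene. In the first 56 bins of 10 kb, 38 were below 0 (OCI-AML3 minus AML5), with medians of 46.5% in OCI-AML3 against 54.0% in AML5. In the last 56 bins, 55 were above 0, with medians of 77.5% and 56.2%. The share of all bins of the genome on either side of 0 was not computed. Of all whole gene bodies, 92.4% were below 0. The bins of AML5 stayed between 38.9% and 73.7% from end to end, whereas those of OCI-AML3 ran from 22.7% to 92.1%. Of its 112 bins, 25 were higher by over 20 percentage points and 4 were lower, where 2.85% and 17% of the 281813 bins of the genome were. The first bin, which holds the TSS, had 65.0% in OCI-AML3 against 49.4% in AML5 and was followed by bins below 0.

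NRG1, a ligand of ERBB3 and ERBB4 with the largest number of alternative starts in the set, had opposite differences at its most upstream and its canonical promoter (see the plot of start groups). The first start group on chromosome 8 (31496738 to 31498175, plus strand, 7 starts) had 80.7% in OCI-AML3 against 49.0% in AML5. Pooled over calls, 80.6% (79.9–81.3%) of 12892 and 45.5% (44.5–46.6%) of 9124 were methylated. The canonical group (32405728 to 32406248, 11 starts), which lies over 900 kb downstream, had 15.3% in OCI-AML3 against 45.9% in AML5, with pooled shares of 14.1% (13.6–14.7%) of 13942 calls and 46.2% (45.3–47.2%) of 10074. AML5 was at a middle level at both groups, and OCI-AML3 was high at one and low at the other.

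Each NRG1 promoter had a long run of called CpGs at its start. At the first group, 35 CpGs (31496696 to 31497020) had 84.5% in OCI-AML3 against 23.6% in AML5, which was the longest run in any of the 10 genes. At the canonical group, 29 CpGs in exon 1 (32405976 to 32406139) had 12.2% and 64.7%, and 16 in intron 1 (32406443 to 32406549) had 3.26% and 63.8%. Of the other NRG1 start groups, the coding ones at 32463166, 32471893, 32504486 to 32505481 and 32579271 to 32579363 had differences of −0.11, 8.69, 2.37 and 11.2 percentage points. Those without a coding transcript at 32028898 and 32078444 to 32078558 had 38.6% against 60.7% and 29.6% against 49.6%, and the one at 32606342 had 66.4% against 64.0%. Over the 32 distinct NRG1 start windows, 14 were lower and 7 higher, where 7.53% and 1.22% of start windows of protein-coding genes were.

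**Figure D2:**
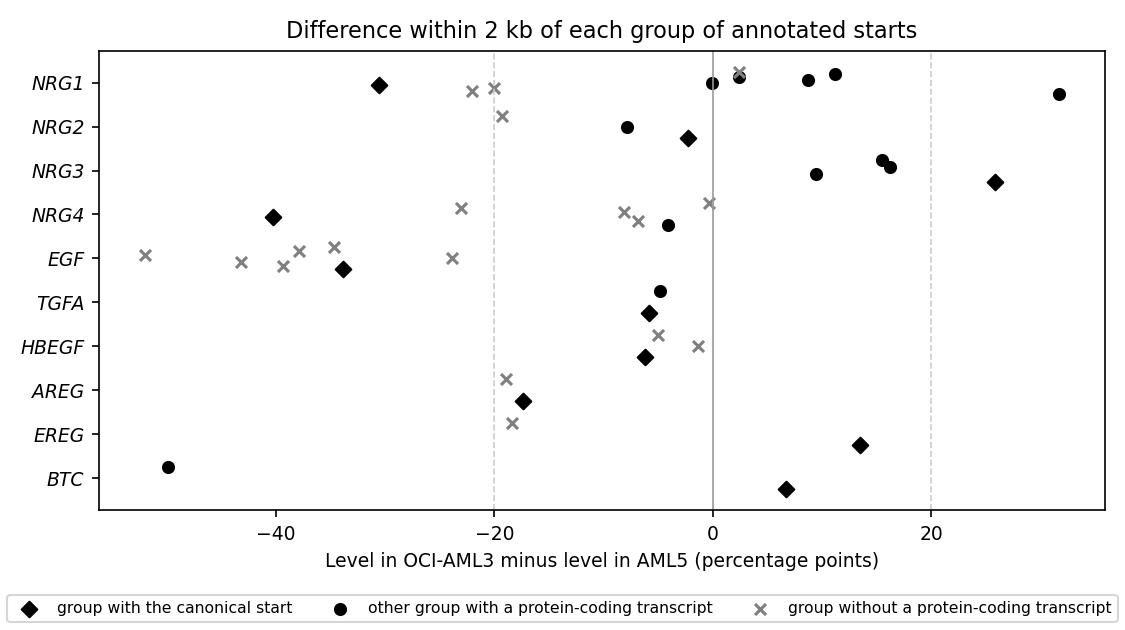
Difference in mean CpG methylation, OCI-AML3 minus AML5 (x axis, percentage points), within 2000 bp of each group of annotated starts of the 10 genes (y axis); starts at most 1000 bp apart form 1 group, marker shapes give the kind of transcript, markers are spread vertically only for legibility, and dashed lines mark 20 percentage points. NRG1 has a canonical group at −30.6 and another coding group at 31.7, NRG4 has a canonical group at −40.2 and an upstream coding group at −4.14, and all 7 EGF groups lie between −52.0 and −23.8.

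The NRG1 promoter window around the most upstream TSS had 82.2% in OCI-AML3 against 48.1% in AML5 over 209 CpGs (SD between CpGs 21.8 and 27.3 percentage points), and 99.5% of promoters had a more negative difference. The 3 protein-coding genes with the most similar pair of promoter levels, by Euclidean distance over the 2 lines, were TMEM30B (81.6% and 47.9%), OR4M2 (81.6% and 47.1%) and GPR143 (80.7% and 47.5%). In all, 23 promoters lay within 5 percentage points of NRG1 in both lines.

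Along the 1216 kb of NRG1 the sign also changed. In its first 61 bins of 10 kb, 59 were below 0, with medians of 42.2% in OCI-AML3 against 57.6% in AML5. In the last 61, 39 were above 0, and the medians were 71.2% and 66.6%. The share of all bins of the genome below 0 was not computed. Of all whole gene bodies, 92.4% were below 0. Both promoters stood out from the bins around them: the first bin had 78.5% and 55.9%, next to bins below 0, and the bin at the canonical start, 900 kb along, had 20% and 49.9%. Of 122 bins, 9 were lower and 1 was higher by over 20 percentage points, where 17% and 2.85% of the bins of the genome were. The whole body had 60.9% in OCI-AML3 against 66.2% in AML5, a difference of −5.32 percentage points, close to the −4.85 of all bodies.

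**Figure D3:**
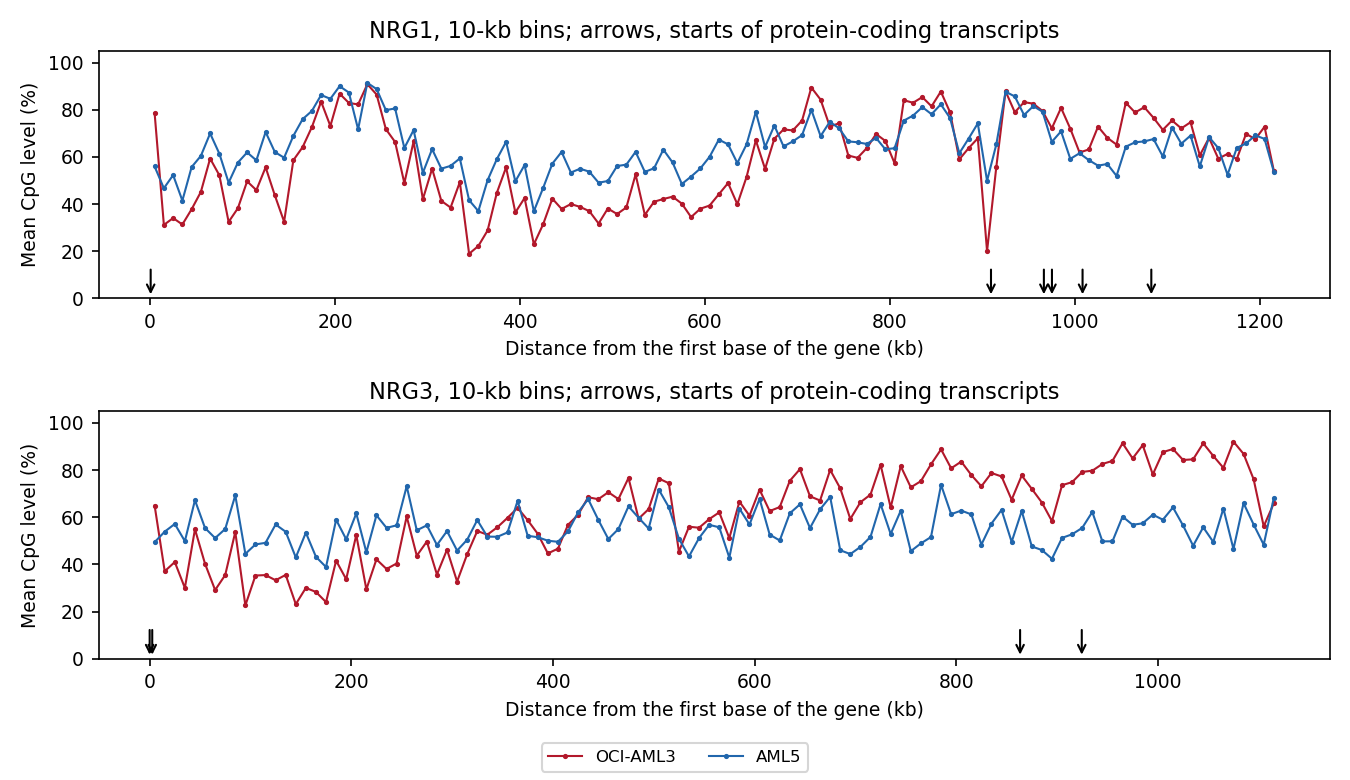
Mean CpG methylation (y axis, %) in 10-kb bins along NRG1 (top) and NRG3 (bottom) against the distance from the first base of the gene (x axis, kb), for the 1 library of each line; arrows mark starts of protein-coding transcripts. In NRG1, 59 of the first 61 bins have the OCI-AML3 point below that of AML5, and in NRG3, 55 of the last 56 have it above. Of all whole gene bodies, 92.4% are lower in OCI-AML3.

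Taking every distinct TSS of the 10 genes, 35 of 90 start windows were lower and 9 were higher in OCI-AML3, where 7.53% and 1.22% of 144108 start windows of protein-coding genes were. Windows of 1 gene overlap, and the lower ones came from EGF (12), NRG1 (14), NRG4 (8) and BTC (1), and the higher ones from NRG1 (7) and NRG3 (2). Joined into 40 groups, 12 were lower and 2 higher. No share of such groups over all genes was computed, and the shares above are for single windows. Of the 22 groups with a coding transcript, 4 were lower (EGF, the canonical NRG1 and NRG4 groups and the internal BTC start) and 2 were higher (the first groups of NRG1 and NRG3). Over the windows of these 22 groups the level ranged from 8.0% (upstream NRG4 start) to 90.3% (NRG3 start at 84498332) in OCI-AML3, and from 12.1% (upstream NRG4 start) to 92.4% (EGF) in AML5.

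**Figure D4:**
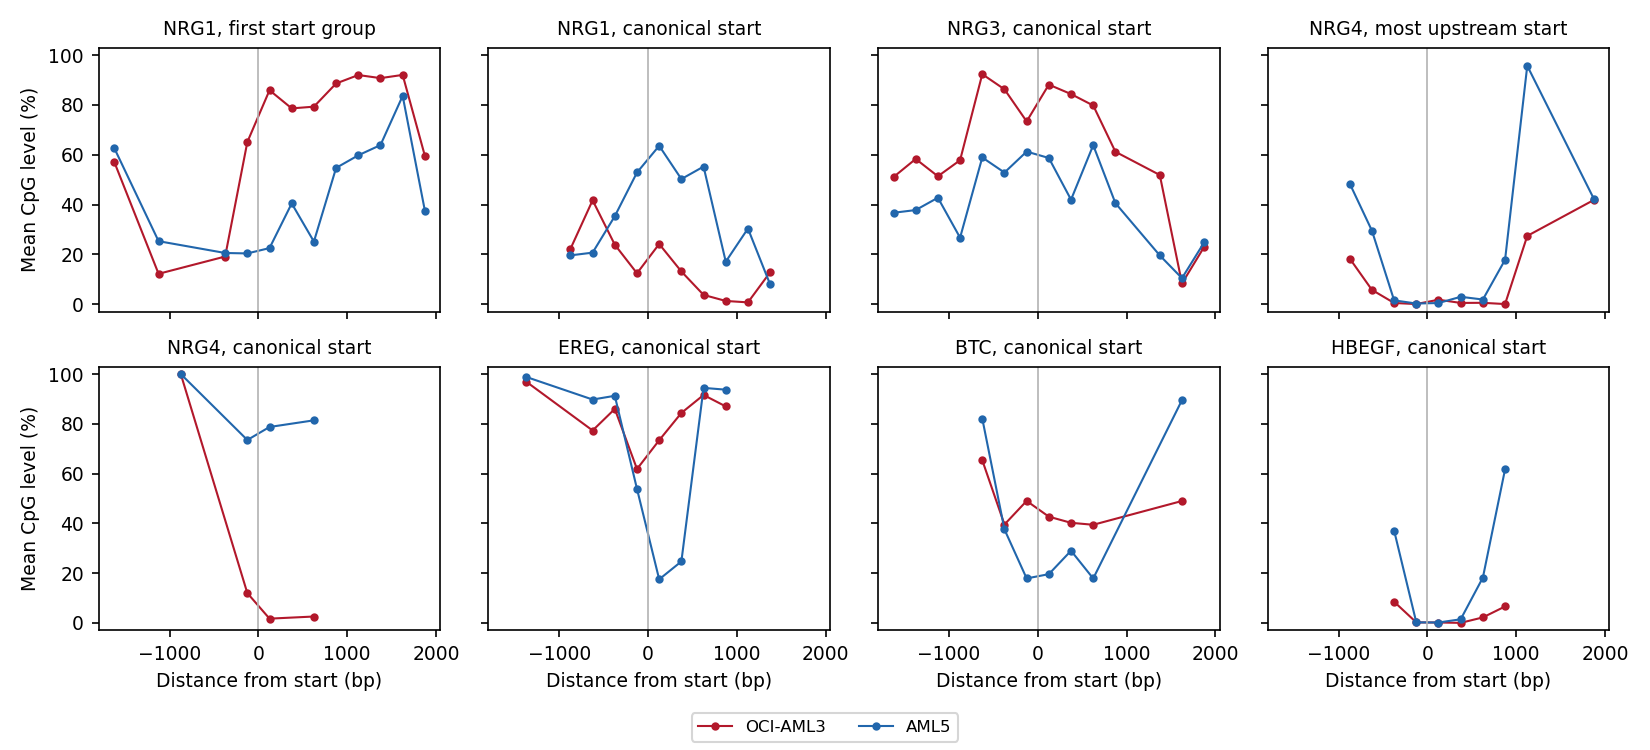
Mean CpG methylation (y axis, %) in 250-bp bins with at least 3 covered CpGs against the distance from the TSS (x axis, bp; positive is downstream) at 8 starts, 1 library per line. OCI-AML3 lies above AML5 at the first NRG1 start and at NRG3 and just downstream of the EREG and BTC starts, lies below it at the canonical NRG1 and NRG4 starts, and both lines are near 0 at HBEGF and at the upstream NRG4 start.

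Single CpGs were compared by Fisher's exact test with Benjamini–Hochberg adjustment over 24454751 nuclear CpGs, a comparison of 2 libraries and not of genotypes. In the 10 genes, 2852 of 18455 (15.5%) were lower in OCI-AML3 and 1798 (9.74%) were higher. Over the genome 14.7% were lower and 3.86% higher. NRG3 held 1071 of the 1798 higher ones and NRG1 another 611. In the start windows of the 10 genes, 472 of 2497 (18.9%) were lower and 378 (15.1%) were higher, where 12.5% and 4.12% of CpGs within 2000 bp of any protein-coding TSS were. NRG1 held 166 of these 378 and NRG3 held 135. By gene, the share of lower CpGs was highest in EGF (47.6%) and BTC (43.4%), followed by NRG2 (26.0%), and was lowest in NRG4 (6.49%) and NRG3 (8.04%).

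Runs of at least 3 neighboring CpGs called in the same direction numbered 212 lower and 113 higher in the 10 genes. Values inside a run were selected for differing. NRG1 had 68 lower and 32 higher runs, and NRG3 had 18 and 71. NRG2 had 52 and 3, EGF had 36 and 0, and BTC had 19 and 3. TGFA had 8 and 2, NRG4 had 5 and 0, HBEGF had 3 and 0, and EREG had 3 and 2. AREG had no run, at its low coverage. Over the genome, 84.7% of 333863 runs were lower in OCI-AML3.

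Short sequence elements were looked for, on both strands, in the 300 bp upstream of the canonical TSS. TATAAA was found in AREG, EREG and NRG4 and in 11% of 19862 protein-coding genes, and CCAAT in EGF and EREG and in 37.8% of genes. The NRG4 window ends at the canonical start (76304765) and differs slightly from the printed NRG4 sequence, which holds no TATAAA on either strand. GGGCGG was present in AREG, HBEGF, NRG1, NRG2, NRG3 and TGFA and in 60.9% of genes. TGACGTCA was present in AREG alone and in 2.57% of genes. The number of CpGs in these 300 bp ran from 3 in EGF and 6 in NRG4 to 36 in HBEGF and 40 in NRG3.

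The receptors and regulators of the pathway were read from a list of 15 other genes. Only the EGFR promoter passed 20 percentage points, with 46.5% in OCI-AML3 against 68.7% in AML5 over 256 CpGs. None was higher by that much, 13 of the 15 were below 0 and the median was −3.65. These counts are near those of all promoters, of which 8.61% were lower and 84.7% were below 0, with a median of −4.68. ERBB2, the co-receptor without a known ligand of its own, had 37.1% and 42.3%, ERBB3, whose kinase is weak, had 89.1% and 91.6%, and ERBB4, the receptor of NRG3 and NRG4, had 24.7% and 19.5%. The ligand EPGN, near EREG on chromosome 4, had 78.0% and 92.2% over 14 CpGs. Promoters of the sheddases ADAM10 and ADAM17, of the ADAM17 partners RHBDF1 and RHBDF2, of the adaptors GRB2, SHC1 and SOS1, and of the negative regulators CBL, ERRFI1 and LRIG1 differed by −10.4 (SHC1) to 1.34 (LRIG1) percentage points. None of the 15 bodies passed 20 percentage points, where 7.67% of all bodies were lower, and their median was −4.54, against −4.85 for all bodies.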

How the data were processed

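The authors sequenced bisulfite-converted DNA of both lines, used Bismark for alignment (hg19) and for methylation calls, and the submitters' processing notes also name Bowtie 0.12.8. The deposited tables, per the labels 1 for each line, give counts for each CpG, in one column methylated and in another unmethylated calls, both strands added by the authors, without normalization. Removal of duplicate reads is not given in the sources used here. Genes and starts came from a GENCODE release lifted to GRCh37 that is later than the one the study used, and sequences from the GRCh37 reference.

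The level of a CpG dinucleotide was computed as methylated over all calls with more than 5 reads in both lines, and regions as means over CpG dinucleotides. Promoters reached 2000 bp to each side of a gene's most upstream TSS, and bodies were the rest of the gene beyond 2000 bp of every TSS. Canonical starts followed the annotation. Fisher's exact test was two-sided with Benjamini–Hochberg adjustment at 0.05, and was tested on simulated data first. Runs had at least 3 tested neighbors called the same way with gaps of at most 300 bp. Both lines had 1 library, so intervals (Wilson, 95%) and P-values describe read sampling. The members and gene lists were chosen with earlier results of these data known. Genes named are the 10 members, the 15 pathway genes, the cell type markers (1 is not reported here) and the 3 promoters nearest to the member with the largest promoter difference; for each gene the runs with the most CpG dinucleotides are given, and stretches picked from these after their values were seen are the intron and exon sequences shown. Alternatives covered the read minimum, pooling of calls, the difference called, window size, TSS, gene set, body definition, test threshold, thinning to equal depth, and run length and gap. Python 3.11.15 was used with scipy 1.17.1, numba 0.67.0, numpy 2.4.6, matplotlib 3.10.9 and pandas 2.3.3.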

Additional observations from a re-analysis of the deposited data

How the results depend on the processing

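The TSS chosen changed the promoter results most. With the canonical TSS, 3 promoters were lower and 1 was higher in OCI-AML3, in place of 1 and 2, and the NRG1 difference of 34.1 percentage points became −30.4. With the mean over the windows of all annotated starts, NRG1 was at −0.838 and 1 promoter was higher. Windows of 500 bp on either side left 0 lower promoters, where EGF had too few CpG dinucleotides. They gave 21 lower of 60 start windows, in place of 35 of 90. Protein-coding transcripts only gave 15 of 52. A difference of over 10 percentage points gave 2 lower promoters, 16 higher start windows in place of 9 and 5 lower bodies in place of 2, and over 30 percentage points gave 1 higher promoter. No share over all genes was computed for these other starts, windows and differences. Pooled calls gave 3 lower bodies in place of 2, with NRG2 at −20.8 percentage points. At least 10 reads in both lines also gave 3, with the EREG body at −21.0. Over all CpG dinucleotides between gene start and end, EREG was at −7.99. Runs of at least 5 CpG dinucleotides numbered 57 lower and 34 higher, in place of 212 and 113. Of the counts recomputed under the alternatives, 50 stayed within 1.5 times their value and 12 did not. Promoter differences of EREG ranged from −3.67 to 33.7 percentage points and those of NRG4 from −40.2 to −0.383 across window, TSS and read settings, while NRG3 stayed between 22.1 and 29.5 and EGF between −40.8 and −28.4. No paired analysis was possible because each line had 1 library, and for the same reason no replicate could be left out. At the median depth, 0 methylated calls at a single CpG dinucleotide allow a share of up to 11.1% in OCI-AML3 and 10.0% in AML5. AREG is limited by coverage.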
